A study of Mus musculus with 6 samples.

Results

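Retinoic acid is a vitamin A derivative that controls gene expression along the body axis of the vertebrate embryo. Retinol is oxidised to retinaldehyde, mainly by RDH10 in the embryo, and retinaldehyde is oxidised to retinoic acid, mainly by ALDH1A2. The CYP26 cytochrome P450 enzymes break retinoic acid down. In the nucleus it binds the receptors RARα, RARβ and RARγ, which act on DNA as partners of RXR receptors, and in the cytoplasm it is carried by the small binding proteins CRABP1 and CRABP2. In the trunk, ALDH1A2 in the somites makes retinoic acid, while CYP26A1 keeps the tailbud low in it, where FGF and Wnt signals maintain the progenitors of the axis.

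The expression of 10 genes of this pathway was examined: Rdh10 and Aldh1a2 for synthesis, Cyp26a1, Cyp26b1 and Cyp26c1 for breakdown, Rara, Rarb and Rarg for the receptors, and Crabp1 and Crabp2 for binding. They were chosen by name, and all 10 were found among 35542 genes. RNA was sequenced from tailbud tissue containing the presomitic mesoderm (PSM), dissected below the last formed somite of E8.5 mouse embryos with 8 somites. The 3 WT embryos were Smchd1+/+, and the 3 MommeD43 embryos were Smchd1MommeD43/MommeD43, carrying on both chromosomes a missense allele of the chromatin protein SMCHD1 from a chemical mutagenesis screen. The strain was FVB/NJ throughout. Each group had a male (replicate 1) and a pair of females (replicates 2 and 3), and by the labels the 2 males were littermates whereas the 4 females had different mothers.

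The libraries held between 10957916 (MommeD43 replicate 1) and 47298348 reads (MommeD43 replicate 2). Smchd1 itself had a log2 fold change of -0.09 ± 0.09 (SE, adjusted p = 0.999, limma), which does not check the genotype, as the allele is missense. Neural stem cells are given as the source in 1 label field and tailbud in the others, and tailbud genes were high in every library. T was between 117 and 189 RPKM (reads scaled to exon length in kilobases and to library size), Msgn1 between 76.2 and 123 RPKM and Tbx6 between 32.2 and 48.6 RPKM. Genes of the rostral PSM and of somites were low, apart from Aldh1a2, which is described below. Tcf15 was between 0.307 and 0.745 RPKM, Meox1 between 1.20 and 1.75 RPKM, and Mesp2 was without a read in 3 libraries. RNA of other tissue varied between libraries. The summed level of 11 yolk sac genes ranged from 171 to 321 RPKM in WT and from 42.5 to 500.2 RPKM in MommeD43 libraries, and that of 11 blood genes from 9.67 to 487 RPKM in WT and from 30.7 to 222 RPKM in MommeD43 libraries.

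A direct repeat of 2 receptor half-sites spaced by 5 bases (DR5) is the classical element through which retinoic acid receptors act. Promoter windows from RefSeq (GRCm38.p6, 250 bases before to 50 after an annotated start of a gene) were held for 8 of the 10 genes. They were searched on both strands for the half-sites AGGTCA and AGTTCA and GGGTCA and GGTTCA, any of them followed after 5 bases by any of them. Of 32851 windows of all genes, 32 (0.0974%) held a DR5. The 8 genes had 12 windows, of which 1 of Rarb and 1 of Cyp26a1 held a DR5. No window was held for Rdh10 and Crabp2. The 120 bases before the annotated start are shown for both genes, with the half-sites in capitals. They are shown because these genes are the receptor and the breakdown enzyme long used as readouts of retinoic acid. The Rarb stretch is at chr14:16575477-16575596 (minus strand), with the DR5 from 53 to 37 bases before the start. That start is internal to the Rarb locus, which runs from 16430839 to 16819156 on the minus strand. The Cyp26a1 stretch is at chr19:37697688-37697807 (plus strand), with the DR5 from 32 to 16 bases before the start, where it reads on the opposite strand.
Rarb: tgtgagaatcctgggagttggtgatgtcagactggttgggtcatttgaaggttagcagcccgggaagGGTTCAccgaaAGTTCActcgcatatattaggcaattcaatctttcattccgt
Cyp26a1: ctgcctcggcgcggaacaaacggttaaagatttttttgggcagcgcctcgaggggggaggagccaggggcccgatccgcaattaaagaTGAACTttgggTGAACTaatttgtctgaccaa
No match was found in these windows of Cyp26b1, Cyp26c1, Crabp1, Aldh1a2, Rara or Rarg. The 2 genes that hold the element were at very different levels here, as described below.

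The tailbud expressed the binding proteins, 1 breakdown enzyme and 1 receptor strongly, and the synthesis enzymes at a lower level. Over the 6 libraries, Crabp1 was at 163 ± 15.04 RPKM and Crabp2 at 100.9 ± 5.49 RPKM (SD, n = 6). Cyp26a1 followed at 63.4 ± 8.82 RPKM and Rarg at 46.8 ± 3.23 RPKM (SD, n = 6). These 4 genes lay above 92.9% or more of the 13617 autosomal genes tested, and each was higher than the next in all 6 libraries, with no overlap of their ranges. Aldh1a2 (7.76 ± 1.58 RPKM) and Rara (7.38 ± 0.629 RPKM) came next, and the order of these neighbours was not resolved, as Aldh1a2 was the higher of them in 4 of 6 libraries. Rdh10 was at 3.69 ± 0.432 RPKM. Rarb (0.446 ± 0.187 RPKM), Cyp26b1 (0.179 ± 0.0786 RPKM) and Cyp26c1 (0.157 ± 0.135 RPKM) were the lowest, and the ranges of neighbours among these 3 genes overlapped. Within libraries, Rarb was above Cyp26b1 in all 6, and Cyp26b1 above Cyp26c1 in 4 of 6.

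**Figure D1:**
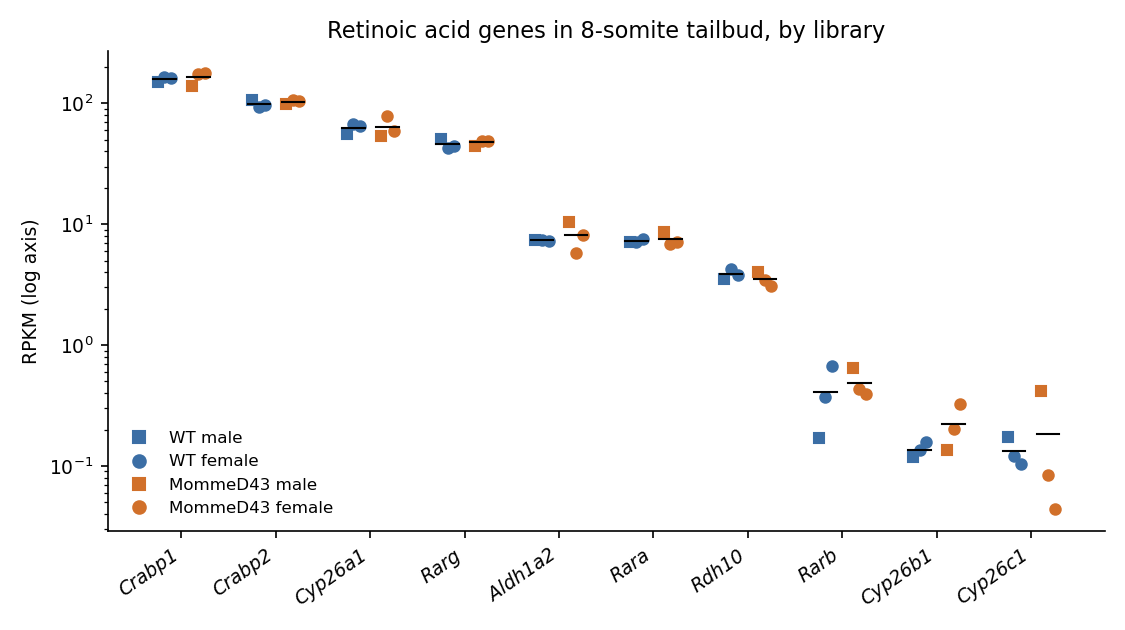
RPKM (log axis) of the 10 retinoic acid genes in each of the 6 libraries, with squares for males, circles for females and a black line at the mean of each group. The 4 genes on the left lie above 40 RPKM and the 3 on the right below 0.7 RPKM in every library, and WT and MommeD43 points overlap for each gene.

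Of the 9 genes with enough reads to be tested, 0 passed an adjusted p of 0.05 between MommeD43 and WT (limma, adjusted over 13617 autosomal genes), and 0 had an unadjusted p under 0.05. The counts were the same with limma-voom on recovered reads. Over all 13617 genes tested, 0 (0%) passed the adjusted threshold and 327 (2.4%) had an unadjusted p under 0.05. The groups did not overlap for 0 of the 9 genes, against 7.08% of all genes tested. Fold changes were above 0 on the log2 scale for 8 genes and below 0 for 1, with a median of 0.05 beside 0.00 for all genes. Each of the 9 had an adjusted p of 0.999. Each library was a separate embryo, so that p-values measure the spread between embryos.

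**Figure D2:**
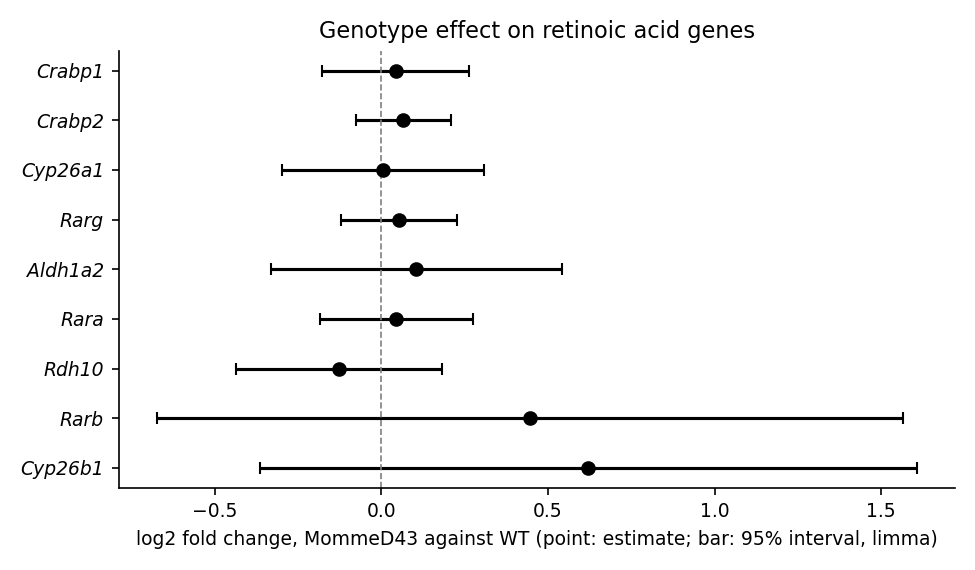
Log2 fold change of MommeD43 against WT for the 9 tested genes, ordered by level, with points for the estimate and bars for the 95% interval (limma, n = 3 against 3). Every interval includes 0, and the bars are narrowest for Crabp2 and Rarg and widest for Rarb and Cyp26b1.

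Synthesis was followed through Rdh10 and Aldh1a2. Rdh10 (ENSMUSG00000025921, chromosome 1, 16105774 to 16133734, plus strand) encodes the retinol dehydrogenase of the embryo. It was at 3.51, 4.26 and 3.78 RPKM in WT replicates 1, 2 and 3, and at 4.06, 3.49 and 3.07 RPKM in MommeD43 replicates 1, 2 and 3. The groups overlapped, and Rdh10 was the only one of the 9 genes with an estimate below 0. Its log2 fold change was -0.13 ± 0.13 (SE, 95% interval -0.44 to 0.18, adjusted p = 0.999, limma).

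Aldh1a2 (ENSMUSG00000013584, chromosome 9, 71215789 to 71296243, plus strand) encodes the retinaldehyde dehydrogenase that makes most retinoic acid of the early embryo. It was at 7.44, 7.35 and 7.28 RPKM in WT replicates 1, 2 and 3. In MommeD43 replicates 1, 2 and 3 it was at 10.5, 5.73 and 8.20 RPKM. The MommeD43 libraries thus included both the highest and the lowest of all 6 values, with the WT libraries close together between them. These extremes, MommeD43 replicates 1 and 2, were also the libraries with the fewest and the most reads (10957916 and 47298348). The part of depth in these values was not tested. The log2 fold change of 0.10 ± 0.19 (SE, 95% interval -0.33 to 0.54, adjusted p = 0.999, limma) turned to -0.10 without MommeD43 replicate 1, and was 0.34 without MommeD43 replicate 2.

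The spread of Aldh1a2 was noticed after its values were seen, and is given as a description. The SD of log2 RPKM was 0.016 in WT and 0.44 in MommeD43 libraries, a ratio of 27.7, and 22 of the 13617 genes tested (0.162%) had a ratio at least as large. The WT libraries lay closer together than counting error alone would place them, as the 274 to 617 reads per library give an SD of 0.074 on that scale. The ratio thus has a denominator below counting error. In MommeD43 libraries the counting SD was 0.082, below the observed 0.44. Exact 95% counting intervals (Poisson) of 9.28 to 11.9 RPKM for MommeD43 replicate 1 and 5.29 to 6.21 RPKM for MommeD43 replicate 2 did not meet. The summed level of the yolk sac genes was 500.2, 58.3 and 42.5 RPKM in MommeD43 replicates 1, 2 and 3. In WT replicates 1, 2 and 3, where Aldh1a2 was nearly level, that sum was 170.6, 281.7 and 320.9 RPKM. The part of that tissue in the Aldh1a2 values was not tested, and in bulk tissue fewer expressing cells and less RNA per cell cannot be told apart.

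Breakdown rested on Cyp26a1, the CYP26 enzyme known from the tailbud. Cyp26a1 (ENSMUSG00000024987, chromosome 19, 37697798 to 37701536, plus strand) was at 56.3, 67.4 and 65.1 RPKM in WT replicates 1, 2 and 3. It was at 53.98, 78.1 and 59.3 RPKM in MommeD43 replicates 1, 2 and 3. Both males were lower than all 4 females, and the highest and lowest values were again both in MommeD43 libraries, those with the most and the fewest reads. The log2 fold change was 0.01 ± 0.13 (SE, 95% interval -0.30 to 0.31, adjusted p = 0.999, limma), so that the interval in linear terms ran from 0.813-fold to 1.24-fold. The SD of log2 RPKM was 0.14 in WT and 0.28 in MommeD43 libraries, above the counting SDs of 0.027 and 0.034.

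**Figure D3:**
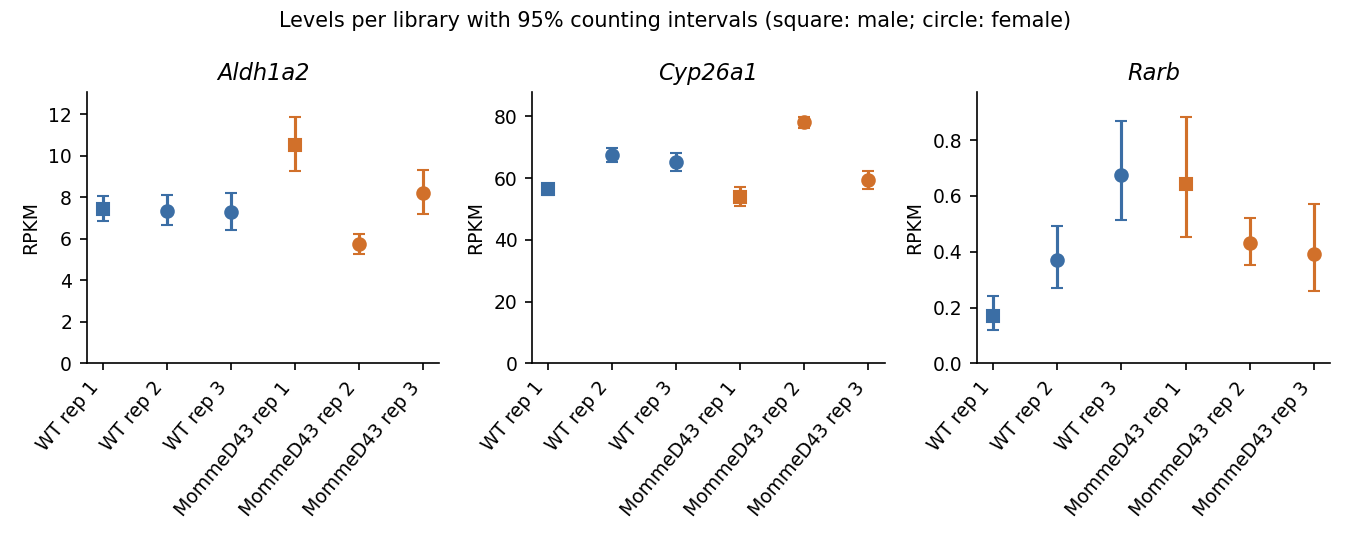
RPKM of Aldh1a2, Cyp26a1 and Rarb in each library with exact 95% counting intervals, in blue for WT and orange for MommeD43, with squares for males and circles for females. MommeD43 replicate 1 is the highest library for Aldh1a2 (10.5 RPKM) and the lowest for Cyp26a1 (53.98 RPKM), MommeD43 replicate 2 is the reverse, and WT replicate 1 is the lowest library for Rarb (0.171 RPKM).

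As Aldh1a2 and Cyp26a1 make and remove the same molecule, their levels were set side by side within each library. The ratio of Cyp26a1 to Aldh1a2 in RPKM was 7.57, 9.17 and 8.95 in WT replicates 1, 2 and 3. It was 5.13, 13.6 and 7.24 in MommeD43 replicates 1, 2 and 3. The WT ratios lay within the MommeD43 range. In each library Cyp26a1 transcripts exceeded those of Aldh1a2 at least 5.13-fold and those of Rdh10 at least 13.3-fold.

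The remaining CYP26 genes were near the limit of detection. Cyp26b1 (ENSMUSG00000063415, chromosome 6, 84571414 to 84593908, minus strand), best known from hindbrain and limb, held 23, 17 and 14 reads in WT replicates 1, 2 and 3, or 0.117, 0.135 and 0.157 RPKM. It held 8, 51 and 23 reads in MommeD43 replicates 1, 2 and 3, or 0.136, 0.202 and 0.328 RPKM. The 2 MommeD43 females were above each WT library and the MommeD43 male was not, and the log2 fold change was 0.62 ± 0.43 (SE, 95% interval -0.37 to 1.61, adjusted p = 0.999, limma). It was 0.29 without MommeD43 replicate 3 and 0.93 without MommeD43 replicate 1.

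Cyp26c1 (ENSMUSG00000062432, chromosome 19, 37685581 to 37693398, plus strand), the neighbour of Cyp26a1 and a gene of the anterior embryo, did not pass the filter on low reads and was not tested. It held 11, 5 and 3 reads in the WT libraries and 8, 7 and 1 in the MommeD43 libraries. MommeD43 replicate 1 was the highest at 0.418 RPKM, with an exact 95% counting interval of 0.180 to 0.823 RPKM. That interval overlapped the interval of WT replicate 1, 0.0858 to 0.308 RPKM. Differences between libraries in this gene were thus not detectable at this depth, except that MommeD43 replicate 2, at 0.0847 RPKM, had an interval of 0.0341 to 0.175 RPKM that did not meet that of MommeD43 replicate 1. Of the summed RPKM of the 3 genes, Cyp26a1 made up 99.0% to 99.6% in every library.

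The receptors were led by Rarg, which encodes the RAR of caudal mesoderm and neural plate. Rarg (ENSMUSG00000001288, chromosome 15, 102234938 to 102257517, minus strand) was at 50.3, 42.8 and 44.7 RPKM in WT replicates 1, 2 and 3. It was at 44.2, 49.3 and 49.3 RPKM in MommeD43 replicates 1, 2 and 3. The WT male was the highest library, and the MommeD43 females were above the WT females. Rarg varied little, with a log2 fold change of 0.05 ± 0.08 (SE, 95% interval -0.12 to 0.23, adjusted p = 0.999, limma). It made up 82.8% to 87.4% of the summed RAR level.

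Rara (ENSMUSG00000037992, chromosome 11, 98927818 to 98974942, plus strand), the broadly expressed receptor, was at 7.10, 7.10 and 7.55 RPKM in WT replicates 1, 2 and 3. It was at 8.57, 6.82 and 7.14 RPKM in MommeD43 replicates 1, 2 and 3. As for Aldh1a2, MommeD43 replicates 1 and 2, the libraries with the fewest and the most reads, were the extremes on either side of the WT libraries. The log2 fold change was 0.04 ± 0.10 (SE, 95% interval -0.19 to 0.27, adjusted p = 0.999, limma), and Rara made up 12.1% to 16.1% of the summed RAR level.

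Rarb (ENSMUSG00000017491, chromosome 14, 16430839 to 16819156, minus strand), a receptor that is itself induced by retinoic acid, made up 0.297% to 1.28% of that sum. It held 33, 46 and 59 reads in WT replicates 1, 2 and 3, or 0.171, 0.370 and 0.674 RPKM. It held 37, 107 and 27 reads in MommeD43 replicates 1, 2 and 3, or 0.641, 0.430 and 0.392 RPKM. The 3 MommeD43 values lay within the WT range. The log2 fold change of 0.45 ± 0.49 (SE, 95% interval -0.67 to 1.57, adjusted p = 0.999, limma) became -0.069 without WT replicate 1 and was 0.92 without WT replicate 3. The interval of WT replicate 1 (0.118 to 0.240 RPKM) lay below those of the other 5 libraries, so that this library stood apart by more than counting error. Genes on the opposite strand, Top2b and Gm48162, cover 38.4% of the Rarb exons. As the use of strand in counting is not given in the sources used here, some Rarb reads may belong to them.

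WT replicate 1 differed from the other libraries in the sum of tailbud genes as well. The summed level of 17 tailbud genes was 1073 RPKM in it, and between 751 and 931.5 RPKM in the remaining 5 libraries. Most of the 17 genes were highest in it, but Lfng was lowest (8.13 RPKM against 10.2 to 18.8 RPKM elsewhere). Hes7, Dll1 and Fgf17 were highest in other libraries. Cdx1, a caudal transcription factor that responds to retinoic acid and Wnt, was at 123 RPKM in WT replicate 1 and between 46.5 and 92.2 RPKM elsewhere. The sum of 14 rostral PSM and somite genes was 9.24 RPKM in that library, within the range of 7.83 to 10.1 RPKM of the rest. Aldh1a2, which is also on that list, was left out of the sum. Some other tissue lists were lower in WT replicate 1. There 11 hindgut genes were at 407 RPKM against 504 to 560.2 RPKM elsewhere, and 9 endothelial genes at 33.4 RPKM against 45.4 to 56.3 RPKM elsewhere. The sums of lateral mesoderm and allantois genes (151.7 RPKM) and of neural crest genes (6.20 RPKM) were also lowest in WT replicate 1. Its neural, notochord and yolk sac sums of 24.7, 10.7 and 171 RPKM lay within the range of the rest. Its blood sum of 9.67 RPKM was the lowest of the 6 libraries. The part of the tissue makeup in the Rarb values was not tested.

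The binding proteins were the most abundant products of the pathway. Crabp1 (ENSMUSG00000032291, chromosome 9, 54764748 to 54773110, plus strand) was at 150.4, 167 and 162 RPKM in WT replicates 1, 2 and 3. It was at 140.5, 176 and 179.9 RPKM in MommeD43 replicates 1, 2 and 3. Both males were lower than each female, and the groups overlapped. The log2 fold change was 0.04 ± 0.10 (SE, 95% interval -0.18 to 0.26, adjusted p = 0.999, limma).

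Crabp2 (ENSMUSG00000004885, chromosome 3, 87948666 to 87953376, plus strand), which hands retinoic acid to the receptors, was at 106 RPKM in WT replicate 1, 93.2 RPKM in replicate 2 and 96.7 RPKM in replicate 3. In MommeD43 replicates 1, 2 and 3 it was at 98.6, 106 and 105 RPKM. Crabp2 was the steadiest of the 10 genes, with its highest library at 1.14 times the lowest, against 1.84 times for Aldh1a2 and 3.94 times for Rarb. The log2 fold change was 0.07 ± 0.06 (SE, 95% interval -0.08 to 0.21, adjusted p = 0.999, limma). Crabp1 exceeded Crabp2 between 1.42-fold and 1.79-fold, with the lowest ratios in both males.

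Because replicate 1 was the only male of each group, the genotype effect was compared between the male pair and the females in a fit with sex, genotype and their interaction. Of the 9 genes, 0 differed at an adjusted p of 0.05 (limma), whereas 37 of 13617 genes (0.272%) passed. Rarg, Rarb and Crabp2 (3 genes) had an unadjusted p under 0.05, a level that 10.8% of all genes tested reached. The signs were opposite in the male pair and the females for 8 of 9 genes, and for 60% of all genes tested. Rarb was higher in the MommeD43 male than in the WT male by 1.91 and had a log2 fold change of -0.28 in the females, a difference of 2.19 ± 0.67 (SE, adjusted p = 0.343, limma). For Rarg the log2 fold change was 0.17 in females and -0.19 in males, a difference of -0.36 ± 0.10 (SE, adjusted p = 0.296, limma). For Aldh1a2 it was -0.09 in females and 0.50 in males, a difference of 0.59 ± 0.28 (SE, adjusted p = 0.494, limma). With a lone male in each genotype (1 each), 2 degrees of freedom remained, the males are assumed to vary like the females, and sex and litter cannot be told apart in it.

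**Figure D4:**
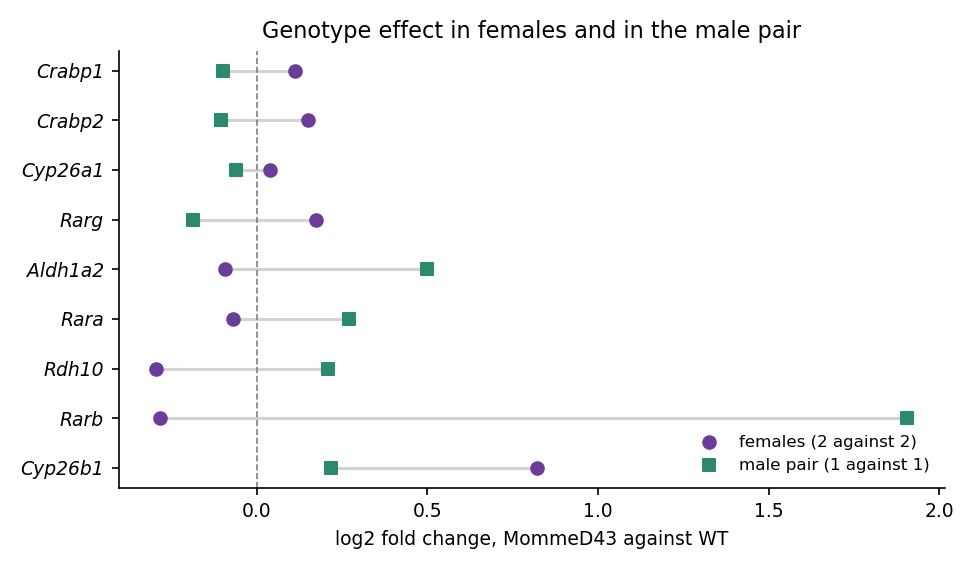
Log2 fold change of MommeD43 against WT in the females (circles, 2 against 2) and in the male pair (squares, 1 against 1) for the 9 tested genes, joined by grey lines. The sets lie on opposite sides of 0 for 8 genes (60% of all genes tested), with the longest distance for Rarb (-0.28 and 1.91).

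Other genes of the pathway were read from 4 lists covering uptake and storage, further retinol and retinal enzymes, RXRs and cofactors, and genes known to respond to retinoic acid. Of 76 genes, 53 were tested, 0 passed an adjusted p of 0.05 and 0 had an unadjusted p under 0.05 (limma), where voom gave 0 and 3, with 3.12% of all genes at that unadjusted level in the voom fit. Groups did not overlap for 2 of the 53 (3.77%), against 7.08% of all genes. Estimates were above 0 for 34 genes and below 0 for 19, with a median log2 fold change of 0.02.

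In uptake and storage, 6 of 11 genes were tested and the median was -0.09. Ttr, which carries retinol-binding protein in plasma and is a yolk sac gene, averaged 55.1 ± 22.7 RPKM in WT against 44.8 ± 54.7 RPKM in MommeD43 libraries (SD, n = 3 each). Rbp4, the plasma carrier of retinol, likewise varied from 10.6 to 89.3 RPKM. In the females alone (2 against 2) Ttr and Rbp4 had log2 fold changes of -2.37 (adjusted p = 0.000131, limma) and -2.28 (adjusted p = 0.00606, limma), whereas the MommeD43 male had the highest level of both. Both genes are on the list of 11 yolk sac genes, so that its sum includes their levels and is no separate measure for them. The part of yolk sac tissue in these values was not tested.

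Among further enzymes of retinol and retinal, 12 of 24 genes were tested. All 12 estimates were above 0, with a median of 0.09 (0.00 for all genes tested) and a range from 0.00 to 1.30. The highest was that of Adh1, which held 2, 26 and 19 reads in WT replicates 1, 2 and 3, so that it rests on a value near the floor. The most expressed were Adh5, at 43.4 ± 0.186 RPKM in WT libraries and 43.5 ± 1.56 RPKM in MommeD43 libraries (SD, n = 3 each), and Por, the reductase that serves microsomal P450 enzymes such as CYP26A1, at 10.9 ± 1.43 and 11.01 ± 0.8998 RPKM. The 2 genes without overlap of the groups, Dhrs7 and Rdh13, were named after their values were seen. Dhrs7 was between 1.12 and 1.24 RPKM in WT and between 1.31 and 1.73 RPKM in MommeD43 libraries, with a log2 fold change of 0.38 ± 0.17 (SE, adjusted p = 0.999, limma). Rdh13 was between 5.52 and 5.86 RPKM in WT and between 5.99 and 6.44 RPKM in MommeD43 libraries, with 0.12 ± 0.08 (SE, adjusted p = 0.999, limma). The alternative retinaldehyde dehydrogenases Aldh1a1 and Aldh1a3 were at or below 0.146 RPKM in every library and were not tested.

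RXRs and cofactors were represented by 18 of 20 genes, with a median of -0.04 and a range from -0.21 to 0.24. Fabp5, which binds retinoic acid and fatty acids, averaged 43.9 ± 0.985 RPKM in WT against 46.4 ± 3.03 RPKM in MommeD43 libraries (SD, n = 3 each). Hdac3, the deacetylase of the corepressor complex, was at 27.4 ± 1.58 and 28.0 ± 1.59 RPKM (SD, n = 3 each). Of the RAR partners, Rxrb was at 13.5 ± 1.42 and 13.9 ± 0.485 RPKM and Rxra at 9.13 ± 1.03 and 8.76 ± 0.314 RPKM (SD, n = 3 each). Rxrg ranged from 1.03 to 5.53 RPKM, with the highest level in WT replicate 1. The groups overlapped for all 3 RXR genes, with an adjusted p of 0.999 for each (limma).

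Of 26 genes known to respond to retinoic acid, 21 were tested, and 16 estimates were above 0 and 5 below, with a median of 0.07 and a range from -0.30 to 0.32. Cdx1 averaged 74.2 ± 42.3 RPKM in WT against 77.6 ± 16.1 RPKM in MommeD43 libraries, and Nkx1-2, a gene of axial progenitors, at 65.1 ± 19.7 and 66.3 ± 9.41 RPKM (SD, n = 3 each). Dhrs3, which reduces retinaldehyde back to retinol and is induced by retinoic acid, was at 1.91 ± 0.0994 and 2.04 ± 0.212 RPKM. Stra6, the retinol importer, was at 5.33 ± 0.902 and 5.59 ± 0.753 RPKM. Of the response genes with a promoter window (15), 0 held a DR5.

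**Figure D5:**
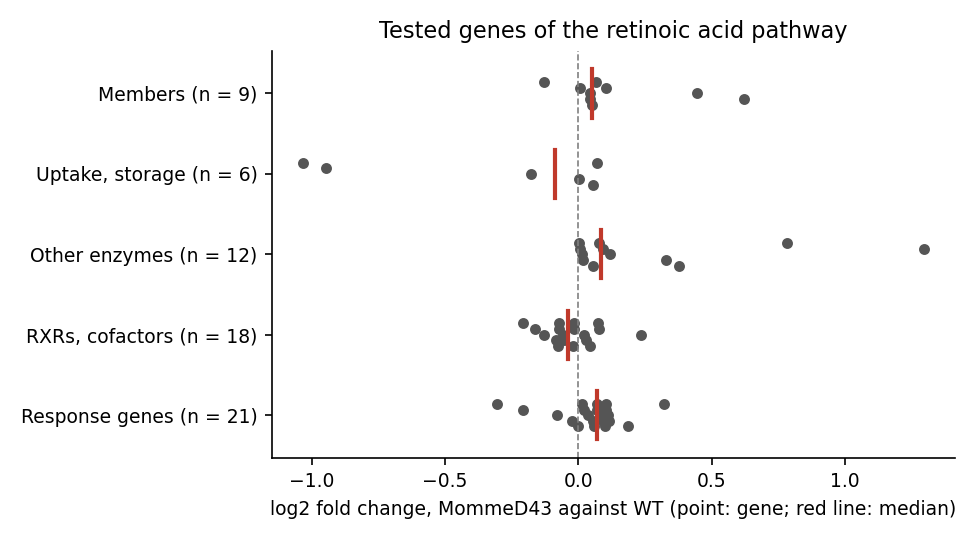
Log2 fold change of MommeD43 against WT for each tested gene (points) of the 10 named genes and the 4 further lists, with the median in red. The medians lie between -0.09 and 0.09, and the points farthest to the left are the yolk sac genes Rbp4 and Ttr.

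Genes whose level followed Aldh1a2, Cyp26a1 and Rarb most closely across the libraries were sought among tested genes of at least 1 RPKM on average, by Pearson's r of log2 RPKM over 6 libraries. With 6 points that share library depth and tissue makeup, r above 0.9 was reached by 50 of 10679, 118 of 10679 and 63 of 10680 genes searched. The closest genes are given as a description, and no test was run on them. For Aldh1a2 the 5 closest were Slc38a4 (r = 0.984), Kit (0.983), Stx3 (0.965), L1td1 (0.959) and Casc4 (0.957). For Cyp26a1 they were H2afy (0.984), Zwint (0.982), Mettl21a (0.980), Mob2 (0.980) and Yaf2 (0.978). For Rarb they were Fam107b (0.993), Cenpb (0.989), Slc40a1 (0.980), Kif27 (0.979) and Decr1 (0.977). These lists share no gene with each other or with the 10 genes.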

How the data were processed

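RNA-seq reads of 6 tailbud libraries, 3 per group, were processed by the authors. By the labels and the methods section, the authors used Trim Galore 0.4.4 for trimming, and reads were mapped with HISAT2 2.0.5 to GRCm38.p6 and quantified with SeqMonk. The deposited values are log2 RPKM, and the authors' mean columns were not used. Groups, replicate numbers and sex came from the labels. The number of unassigned value columns was 0.

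Exon lengths were taken from GENCODE M21, which matched 35555 of 35591 rows. Genes without a read sat at 0.9 read, which gave the library totals, and 98.5% of 41984 values under 100 reads were whole within 0.02 read. Of rows that repeated an identifier, the most expressed was used.

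Low genes were removed by requiring a depth-scaled count (CPM) of at least 0.497, or 10 reads in a library of median size, in at least 3 libraries, and 15 reads in all. The deposited log2 values of the remaining 13617 autosomal genes entered limma 3.58.1 under R 4.3.3, with the prior variance following mean level, without a pseudocount. Tests were two-sided, with Benjamini-Hochberg adjustment over all of them. Counting intervals (exact Poisson, 95%) cover counting error only. The code was tested on simulated data. Python 3.11.15, pandas 2.3.3, numpy 2.4.6, scipy 1.17.1 and matplotlib 3.10.9 were used.

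The members, gene lists and tests were chosen with earlier results of these data known. The naming rule was all 10 genes, listed genes with an unadjusted p under 0.05, the 2 most expressed genes of each list, the 5 genes closest to Aldh1a2, Cyp26a1 and Rarb, and a fixed set of tissue markers. Rbp4, Rxra, Rxrb, Dhrs3, Stra6, Dhrs7, Rdh13, Aldh1a1 and Aldh1a3 were named in addition, after their values were seen. A result that the rule called for is not reported here. Alternatives were other filters, pseudocounts of 0.1 and 1 RPKM, median-ratio scaling, voom with and without quality weights on recovered reads, array weights, no variance trend, sex as a covariate, a replicate block, females alone and each library left out.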

Additional observations from a re-analysis of the deposited data

How the results depend on the processing

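The number of the 10 genes past an adjusted p of 0.05 (limma) was 0 in all 18 alternatives, with 0 to 2 at an unadjusted p under 0.05. Over all autosomal genes the number was 0 except with females alone (10 genes). An unadjusted p under 0.05 was reached by 1188 of 13617 genes there and by 187 to 944 genes in the other alternatives. Females alone also gave 2 further pathway genes, Ttr and Rbp4, where the remaining alternatives gave 0. In that fit 11 of the 53 further pathway genes had an unadjusted p under 0.05 (limma). It uses 4 libraries, and the cause was not tested. In the sex by genotype fit, 0 of the 10 genes passed with log2(RPKM + 1), median-ratio scaling and voom.

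Estimates of Rdh10, Cyp26b1, Rarg and Crabp2 kept their sign in every alternative that tested them. Over the fits that left out 1 library they ranged from -0.23 to -0.029, from 0.29 to 0.93, from 0.0038 to 0.12 and from 0.025 to 0.12. Aldh1a2 turned to -0.084 with voom and -0.093 with females alone, and ranged from -0.10 to 0.34 over the fits that left out 1 library. Cyp26a1 turned to -0.048 with voom quality weights and ranged from -0.15 to 0.12 over those fits. Rara and Rarb turned to -0.069 and -0.28 with females alone, and ranged from -0.055 to 0.11 and from -0.069 to 0.92. Crabp1 ranged from -0.022 to 0.16. None of these values passed the threshold before or after the change, and the cause was not tested.

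With the replicate block, 0 of the 10 genes, 0 of all autosomal genes and 0 further pathway genes passed. The paper describes the embryos as somite-matched pairs, whereas the main fit was unpaired. Deviations of same-numbered libraries from their group means had correlations of -0.03, 0.17 and -0.17, and other combinations ranged from -0.19 to 0.18. These values cannot decide which libraries were paired, as the replicate 1 males, littermates by the labels, had -0.03. Scaling moved no library by more than 0.011 on the log2 scale. Depth limits Cyp26b1, Cyp26c1 and Rarb, which rest on 136, 35 and 309 reads in all.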
